A study of Mus musculus with 52 samples.

Results

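The Nr4a genes encode the 3 orphan nuclear receptors of the NR4A subfamily, Nr4a1 (Nur77), Nr4a2 (Nurr1) and Nr4a3 (Nor1). They were described here from chromatin immunoprecipitation with sequencing (ChIP-seq) of RNA polymerase II (Pol II) and of acetylated lysine 27 of histone H3 (H3K27ac) in primary culture neurons of CD1 mice. All rows of the Pol II table that carry 1 of the 3 symbols were taken, which gave 6 of the 27815 windows around transcription start sites (TSSs) and 3 of the 24194 gene symbols. In the H3K27ac tables all regions were taken whose nearest gene was given as Nr4a1, Nr4a2, Nr4a3 or Grasp, the neighbour of Nr4a1. This gave 24 of 940 regions, of which 20 carried 1 of these names for both replicate numbers. The series holds 52 samples: 31 Pol II libraries in 16 groups, 16 H3K27ac libraries in 8 groups and 5 input libraries that were not analysed here. For both antibodies 1 arm received U0126, which blocks MEK1 and MEK2 and so the activation of ERK, and the other arm received the vehicle, DMSO. Pol II was measured after 1, 10, 30, 60, 180 and 360 min of neuronal activity and in unstimulated neurons labelled 1 h or 6 h, in each arm. H3K27ac was measured in unstimulated neurons and after 10, 30 and 60 min, in each arm. There were 2 libraries per group, but a single Pol II library for U0126 at 180 min. The labels name neither the stimulus nor the brain region, and they do not say whether libraries of a group came from separate cultures. The p-values therefore reflect the spread of these samples alone, and that spread may be technical.

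NR4A receptors are transcription factors whose ligand pocket is filled by side chains, so their activity is thought to follow their amount rather than a ligand. They bind the response element NBRE as monomers, and they are immediate-early genes: in neurons and other cells they are transcribed within minutes of calcium entry or cAMP signals, without need of new protein. The factors CREB, MEF2 and SRF are known regulators of NR4A promoters. Nr4a2 is required for midbrain dopamine neurons, and Nr4a1 is known for limiting spine density in active neurons. Grasp encodes a scaffold protein that binds group I metabotropic glutamate receptors.

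The 3 promoters are shown at 1 annotated start per gene, before the Pol II levels. The stretches hold 250 bases before and 50 bases after the start annotated by RefSeq on GRCm38.p6, and all 3 symbols and Grasp had an entry. Capitals mark the short CRE motif TGACG or its reverse complement, the core of the element bound by CREB. The Nr4a1 stretch lies at chr15:101266596-101266895 on the plus strand, the Nr4a2 stretch at chr2:57123954-57124253 on the minus strand and the Nr4a3 stretch at chr4:48045055-48045354 on the plus strand.
Nr4a1: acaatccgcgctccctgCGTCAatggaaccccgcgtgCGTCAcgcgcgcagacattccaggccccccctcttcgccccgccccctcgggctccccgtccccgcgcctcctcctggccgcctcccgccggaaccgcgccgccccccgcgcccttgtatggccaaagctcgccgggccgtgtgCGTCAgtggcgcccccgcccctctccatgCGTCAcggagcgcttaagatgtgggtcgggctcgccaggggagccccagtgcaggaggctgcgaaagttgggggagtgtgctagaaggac
Nr4a2: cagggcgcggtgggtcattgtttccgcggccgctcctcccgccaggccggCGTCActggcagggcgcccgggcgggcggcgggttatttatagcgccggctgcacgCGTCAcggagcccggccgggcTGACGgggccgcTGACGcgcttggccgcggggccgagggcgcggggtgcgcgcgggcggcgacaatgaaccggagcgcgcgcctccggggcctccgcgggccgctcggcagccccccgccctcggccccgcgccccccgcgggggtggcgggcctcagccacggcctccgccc
Nr4a3: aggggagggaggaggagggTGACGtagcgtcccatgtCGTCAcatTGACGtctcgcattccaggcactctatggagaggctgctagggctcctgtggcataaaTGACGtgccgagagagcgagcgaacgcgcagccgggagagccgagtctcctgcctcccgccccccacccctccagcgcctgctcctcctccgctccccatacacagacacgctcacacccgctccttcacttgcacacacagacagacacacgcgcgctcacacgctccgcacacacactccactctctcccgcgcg
Each of the 3 stretches held 4 copies of TGACG, counted on both strands, whereas the Grasp stretch held 0. Of the 32851 promoters in the same table, 20.8% held at least 1 copy and 0.231% held 4 or more. The first bases of the copies lay 233, 213, 69 and 40 bases before the annotated start in Nr4a1, all 4 on the opposite strand. In Nr4a2 they lay 200 and 144 bases before the start on the opposite strand and 123 and 111 bases before it on the gene's strand. In Nr4a3 they lay 231, 205 and 147 bases before the start on the gene's strand and 213 bases before it on the opposite strand. The copies therefore sat closest to the start in Nr4a1 and at least 111 bases before it in Nr4a2 and Nr4a3. The full element TGACGTCA, which holds the short motif on both strands, was in none of the 3 stretches and in 1.79% of all promoters. The NBRE letters AAAGGTCA and the strict CArG box (CCWWWWWWGG, where W is A or T), the element bound by SRF, were also in none of the 3. They were in 1.51% and 1.63% of all promoters. Looser forms of these motifs were not searched, so their absence was not shown. Of the 3 Nr4a stretches that of Nr4a2 held TATAAA, 164 bases before the start on the opposite strand. The Grasp stretch held 2 copies, 230 and 12 bases before the start on the gene's strand, and 13.6% of all promoters held at least 1. The share of G and C bases was 72.3% in Nr4a1, 81.7% in Nr4a2 and 64.7% in Nr4a3. It was not computed over all promoters, so the motif counts were not compared with promoters of like base composition. A match in letters is a description, not a site of binding, and these coordinates are on another build than the Pol II windows (mm9), so no motif was placed within a window. Nr4a2 and Nr4a3 have more than 1 window, and those of Nr4a2 start 8965 bp apart. Which window each stretch belongs to was not determined, so the Nr4a2 copies cannot be assigned to the window tested below.

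**Figure D1:**
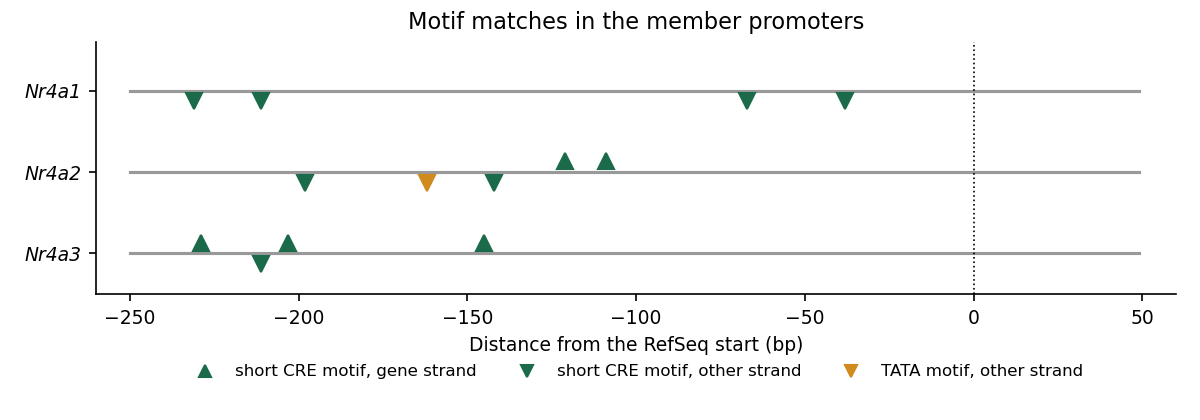
Positions of the short CRE motif and of TATAAA in the promoters of Nr4a1, Nr4a2 and Nr4a3, in bases from the annotated start, by strand. Each promoter holds 4 copies of the short CRE motif, and TATAAA is in that of Nr4a2.

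The deposited Pol II values are a normalized density per 600 bp TSS window, so the unit is the same for all genes and windows. In the 31 Pol II libraries the summed density was 15568 to 18507 over all windows, and the median of the 731 windows that the authors marked as control TSSs was 0.998 to 1.02. Both 30 min libraries of replicate number 1 stood apart, with 9.52% of windows at 0 in U0126 and 11.5% in vehicle, against 1.22% and 1.64% in their partners. Of 15 neuron markers 13 passed the filter on density, and the densities of the list summed to 13.0 to 19.8 per library. Tubb3, a neuronal tubulin, was the highest of them in unstimulated libraries. Of 8 astrocyte markers 3 passed, with sums of 2.07 to 3.97, and of 8 oligodendrocyte lineage markers 4 passed, with sums of 2.64 to 5.04. None of 8 microglia and none of 8 endothelial and fibroblast markers passed, with sums of 0.294 to 1.86 and 0.552 to 1.86. The lists differ in length, so their sums are not comparable. The median unstimulated density per marker was 0.788 for neurons, 0.339 for astrocytes and 0.289 for the oligodendrocyte lineage. It was 0.142 for microglia and 0.151 for endothelial cells and fibroblasts. Olig2, of the oligodendrocyte lineage list, had 1.16, above the neuron median. Since the samples are bulk cultures, more cells with Pol II at a gene and more Pol II per cell cannot be told apart.

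All 3 Nr4a genes gained Pol II at their TSS with activity in both arms. The gain was largest at 30 or 60 min, when the densities were 3.73-fold to 6.39-fold the unstimulated level of the same arm, as ratios of group means. For tests, 1 window per gene was used, the one with the highest mean, and the log2 of the density plus a pseudocount of 0.148 was compared with limma over the 12097 genes of the upper 50 percent by mean density. A gene was called where the Benjamini-Hochberg adjusted p over all 12097 genes was under 0.05. Activity of 1 to 60 min was compared with unstimulated neurons of 1 h and activity of 180 and 360 min with those of 6 h, always within an arm. All times of an arm thus share their unstimulated libraries. In U0126, 3 of 3 Nr4a genes were called higher at 30 min, where 0.405% of all genes tested were, and 3 of 3 at 60 min, where 0.116% were. In vehicle, 3 of 3 were called higher at 30 min, where 1.24% of all genes were, and 3 of 3 at 60 min, where 0.157% were. At 10 min 0 of 3 were called in U0126, where 0.0165% of all genes were called higher, and 2 of 3 in vehicle, Nr4a1 and Nr4a3, where 0.182% were. At 1, 180 and 360 min limma called 0 genes of the whole table higher in either arm (0%), with 315, 587 and 355 genes at an unadjusted p under 0.05 in U0126 and 415, 592 and 375 in vehicle.

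**Figure D2:**
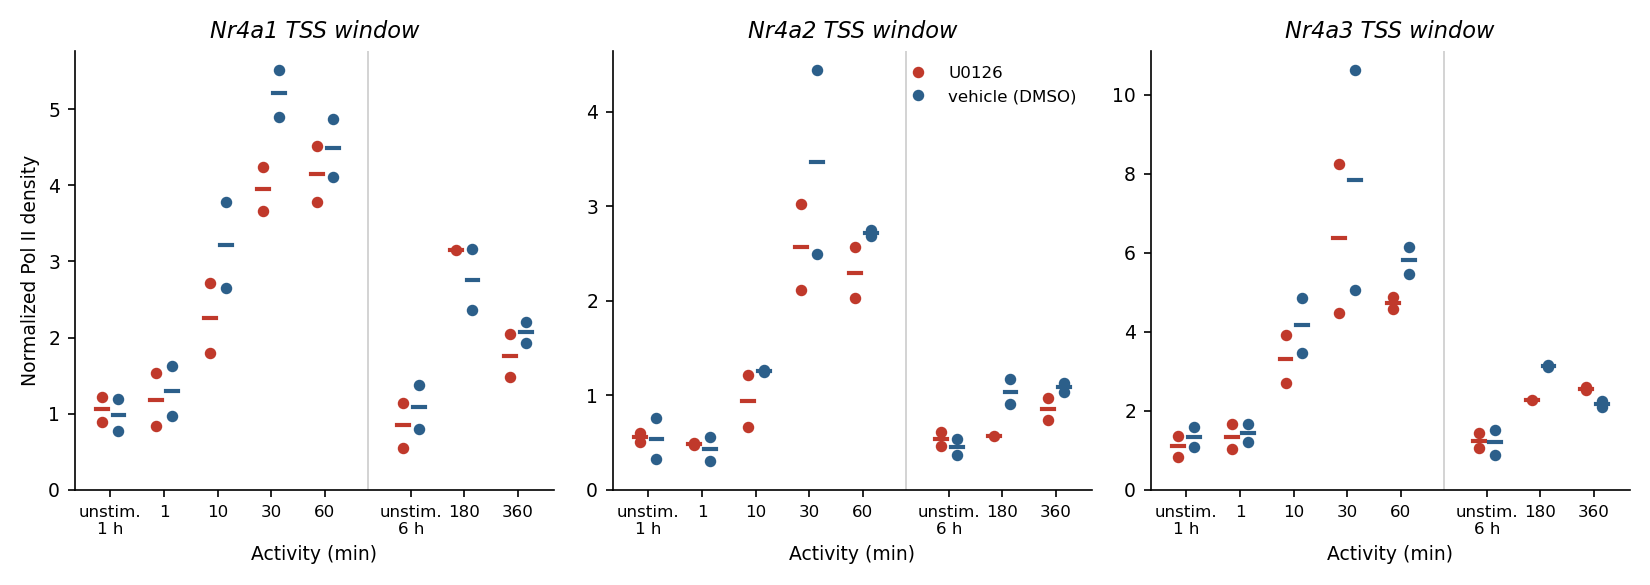
Normalized Pol II density at the tested TSS window of each Nr4a gene against time, 1 point per library, with a bar at the group mean of U0126 and of vehicle. In vehicle the group mean is highest at 30 min for all 3 genes, and unstimulated and 1 min libraries lie lowest. For Nr4a2 and Nr4a3 replicate 2 of vehicle is higher at 60 min than at 30 min.

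Nr4a1 encodes Nur77, also known as NGFI-B from its induction by nerve growth factor, and has a single window in the table, on chromosome 15 at 101096976 to 101097576 (mm9), which the authors marked as a rapid activity-regulated TSS (rPRG). In U0126 its densities were 0.898 and 1.22 in unstimulated neurons of 1 h, 0.834 and 1.54 at 1 min, 1.80 and 2.72 at 10 min, 4.24 and 3.66 at 30 min, and 4.52 and 3.78 at 60 min. In vehicle they were 0.775 and 1.19 in unstimulated neurons of 1 h, 0.967 and 1.63 at 1 min, 2.65 and 3.78 at 10 min, 5.52 and 4.89 at 30 min, and 4.11 and 4.87 at 60 min. From 10 to 60 min, every library with activity lay above both unstimulated libraries of its arm. The same held for 23.2%, 24.6% and 28.4% of all genes tested at 10, 30 and 60 min in U0126 and for 24.1%, 25.2% and 25.9% in vehicle, so nothing is read from it. In U0126 the later values were 0.556 and 1.14 in unstimulated neurons of 6 h, 3.15 in the single library at 180 min, and 1.48 and 2.04 at 360 min. In vehicle they were 0.799 and 1.37 in unstimulated neurons of 6 h, 2.37 and 3.16 at 180 min, and 1.93 and 2.21 at 360 min. The late libraries lay above the unstimulated ones, as they did for 42.6% and 21.5% of all genes at 180 and 360 min in U0126 and 22.0% and 17.6% in vehicle, and no late difference was called. On the log2 scale Nr4a1 rose by 1.75 at 30 min (SE 0.30, adjusted p 0.00127) and by 1.78 at 60 min (adjusted p 0.00222) in U0126. In vehicle it rose by 1.56 at 10 min (adjusted p 0.0162), by 2.24 at 30 min (adjusted p 1.91e-05) and by 2.02 at 60 min (adjusted p 0.000317). At 10 min in U0126 the log2 difference was 0.97 (adjusted p 0.403). Among the 12097 genes the vehicle differences of Nr4a1 ranked 9th, 4th and 3rd from the top at 10, 30 and 60 min.

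Nr4a2, the receptor on which midbrain dopamine neurons depend, had the lowest densities of the 3. Its tested window lies on chromosome 2 at 56967149 to 56967749 (mm9) and was marked by the authors as a delayed activity-regulated TSS (dPRG). In U0126 its densities were 0.512 and 0.607 in unstimulated neurons of 1 h, 0.475 and 0.499 at 1 min, 0.665 and 1.22 at 10 min, 3.03 and 2.12 at 30 min, and 2.03 and 2.57 at 60 min. In vehicle they were 0.329 and 0.756 in unstimulated neurons of 1 h, 0.311 and 0.557 at 1 min, 1.27 and 1.24 at 10 min, 4.44 and 2.50 at 30 min, and 2.76 and 2.69 at 60 min. The 10 min libraries lay above the unstimulated ones in both arms, as for 23.2% of all genes in U0126 and 24.1% in vehicle. They lay well below the libraries of 30 and 60 min. In U0126 the later values were 0.462 and 0.610 in unstimulated neurons of 6 h, 0.575 in the single library at 180 min, and 0.976 and 0.735 at 360 min. In vehicle they were 0.366 and 0.543 in unstimulated neurons of 6 h, 1.17 and 0.908 at 180 min, and 1.14 and 1.04 at 360 min. The U0126 library at 180 min lay between the unstimulated U0126 libraries, whereas both vehicle libraries at 180 min lay above theirs. The latter held for 22.0% of all genes and the vehicle difference was not called. With 1 U0126 library, nothing is read from this contrast. Nr4a2 rose on the log2 scale by 1.91 at 30 min (SE 0.32, adjusted p 0.00124) and by 1.72 at 60 min (adjusted p 0.00993) in U0126. In vehicle it rose by 2.38 at 30 min (adjusted p 1.91e-05) and by 2.10 at 60 min (adjusted p 0.000356). At 10 min the log2 difference was 0.56 in U0126 (adjusted p 0.850) and 1.08 in vehicle (adjusted p 0.197). The vehicle difference of Nr4a2 ranked 35th at 10 min, 2nd at 30 min and 1st at 60 min of 12097 genes.

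Nr4a3, which encodes Nor1, had the highest densities of the 3. Its tested window lies on chromosome 4 at 48057876 to 48058476 (mm9) and carries no mark of the authors. In U0126 its densities were 0.836 and 1.37 in unstimulated neurons of 1 h, 1.04 and 1.66 at 1 min, 2.71 and 3.91 at 10 min, 8.25 and 4.47 at 30 min, and 4.88 and 4.59 at 60 min. In vehicle they were 1.07 and 1.60 in unstimulated neurons of 1 h, 1.22 and 1.67 at 1 min, 3.47 and 4.86 at 10 min, 10.6 and 5.06 at 30 min, and 6.15 and 5.47 at 60 min. Replicate 1 of 30 min was far above its partner in both arms, and these are the libraries with the most windows at 0, a property whose part in the result was not tested. In U0126 the later values were 1.06 and 1.43 in unstimulated neurons of 6 h, 2.26 in the single library at 180 min, and 2.53 and 2.60 at 360 min. In vehicle they were 0.882 and 1.52 in unstimulated neurons of 6 h, 3.17 and 3.10 at 180 min, and 2.10 and 2.25 at 360 min. As for Nr4a1, every library from 10 min on lay above both unstimulated libraries of its arm, which 17.6% to 42.6% of all genes did at a given time and arm. Nr4a3 rose on the log2 scale by 2.33 at 30 min (SE 0.30, adjusted p 5.61e-05) and by 1.94 at 60 min (adjusted p 0.00115) in U0126. In vehicle it rose by 1.53 at 10 min (adjusted p 0.0188), by 2.33 at 30 min (adjusted p 1.38e-05) and by 2.00 at 60 min (adjusted p 0.000356). At 10 min in U0126 its log2 difference was 1.47 (adjusted p 0.0690). Nr4a3 ranked 1st of 12097 genes at 30 and at 60 min in U0126, and 10th, 3rd and 4th at 10, 30 and 60 min in vehicle.

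The calls did not rest equally on all libraries. At 30 min in vehicle all 3 genes stayed called without any 1 of the 4 libraries, with log2 differences of 1.97 to 2.51 for Nr4a1, 1.92 to 2.84 for Nr4a2 and 1.81 to 2.85 for Nr4a3. At 10 min in vehicle the calls were lost without replicate 1 of the unstimulated libraries (Nr4a1 1.29, Nr4a3 1.27, both adjusted p 0.461). They were also lost without replicate 1 of 10 min (1.80 and 1.75, adjusted p 0.0525 and 0.0650) or replicate 2 of 10 min (1.33 and 1.31, adjusted p 0.118 and 0.133). At 60 min in vehicle all 3 calls were lost without replicate 1 of the unstimulated libraries (1.76, 1.64 and 1.74, adjusted p 0.0825, 0.123 and 0.0825). At 30 min in U0126 Nr4a3 stayed called without any 1 library (1.92 to 2.75). Nr4a1 and Nr4a2 at 30 min in U0126 were lost without replicate 1 of the unstimulated libraries (1.56 and 1.81, adjusted p 0.140 and 0.0934) or of 30 min (1.67 and 1.68, adjusted p 0.108 and 0.144). At 60 min in U0126 all 3 were lost without replicate 1 of the unstimulated libraries (1.58, 1.63 and 1.63, adjusted p 0.282, 0.421 and 0.206). All 60 min calls thus rested on replicate 1 of the unstimulated libraries of their arm. Nr4a1 at 60 min in U0126 was also lost without replicate 1 of 60 min (1.68, adjusted p 0.104), and Nr4a2 without any 1 of the 4 libraries (1.54 to 1.91, adjusted p 0.0569 to 0.421).

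The time course was also described as a share of the rise. In U0126 the mean density at 10 min had covered 41.6% of the rise seen at 30 min for Nr4a1, 18.9% for Nr4a2 and 42.0% for Nr4a3. In vehicle these shares were 52.9% for Nr4a1, 24.5% for Nr4a2 and 43.5% for Nr4a3. At 60 min the mean rise in U0126 was 107%, 86.5% and 69.1% of that at 30 min for Nr4a1, Nr4a2 and Nr4a3, and in vehicle it was 83.0%, 74.6% and 68.8%. Single libraries moved these shares widely. Leaving out 1 library at a time, a choice made after the data were seen, gave shares at 10 min of 25.6% to 57.6% for Nr4a1, 5.21% to 32.6% for Nr4a2 and 30.6% to 65.5% for Nr4a3 in U0126. In vehicle it gave 39.5% to 66.3%, 18.4% to 36.6% and 30.5% to 75.9%. The 10 min ranges of Nr4a2 and the other genes overlapped in U0126, and in vehicle that of Nr4a2 overlapped with that of Nr4a3. No order of the genes is therefore drawn from the shares. At 60 min the ranges for Nr4a1, Nr4a2 and Nr4a3 were 94.2% to 120%, 70.5% to 112% and 50.8% to 108% in U0126. In vehicle they were 73.9% to 92.1%, 56.0% to 112% and 48.2% to 120%. Apart from Nr4a1 in vehicle, they lay on both sides of 100%, so the time of the peak is not settled there. At 360 min 31.6%, 15.9% and 25.0% of the rise remained in U0126 and 23.2%, 21.6% and 15.0% in vehicle, measured against the unstimulated neurons of 6 h.

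Steps between neighbouring times in vehicle showed where Pol II changed beyond the spread of the libraries. The step to 10 min from 1 min was called for Nr4a3 alone (log2 difference 1.42, adjusted p 0.0427), where 0.0909% of all genes were called, and this call was lost without any 1 of its 4 libraries. For Nr4a1 and Nr4a2 the same step was 1.22 and 1.29 (adjusted p 0.155 and 0.173). The step to 30 min from 10 min was 0.68 for Nr4a1, 1.30 for Nr4a2 (adjusted p 0.470) and 0.81 for Nr4a3, with 0.00827% of all genes called. The difference of 60 minus 30 min was -0.22, -0.28 and -0.34, with 0 genes called by limma (0%) and 410 at an unadjusted p under 0.05. That of 180 minus 60 min was -0.69, -1.30 (adjusted p 0.630) and -0.87, with 0.00827% of all genes called. That of 360 minus 180 min was -0.35, 0.10 and -0.47, with 0 genes called (0%) and 241 at an unadjusted p under 0.05. Of the neighbouring steps after 10 min none was called for a Nr4a gene. When the 16 group means of a gene were put in order, the library ranges of neighbours in the order overlapped in 14 of 15 pairs for Nr4a1, 12 of 15 for Nr4a2 and 10 of 15 for Nr4a3. Vehicle at 30 min was at the top of the order for all 3. For Nr4a2 and Nr4a3 this place rested on replicate 1 of 30 min. In replicate 2 of vehicle, 60 min was above 30 min for Nr4a2 (2.69 against 2.50) and Nr4a3 (5.47 against 5.06).

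Within the sets that the authors marked, the Nr4a windows stood near the top. The criteria of that marking were not stated in the files, so these places are a description. Of the 19 rPRG windows Nr4a1 had the largest log2 difference in vehicle at 30 and at 60 min and was in place 5 at 10 min, when Egr1 led. Of the 116 dPRG windows Nr4a2 and the dPRG window of Nr4a3 held places 1 and 2 at 30 and at 60 min, against set medians of 0.29 and 0.35. At 10 min they held places 6 and 2, behind Slc7a1 in place 1.

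The other windows of Nr4a2 and Nr4a3 show at which annotated starts the Pol II density changed. Pol II that started in a window and Pol II that came from a start further upstream were not told apart. The dPRG window of Nr4a3 begins 74 bp before the tested one and shares 526 bp with it, so it is no separate measurement. There the log2 differences at 10, 30 and 60 min were 1.36, 2.17 and 1.77 in U0126 and 1.40, 2.17 and 1.84 in vehicle (SE 0.29 each). The third Nr4a3 window, 5941 bp downstream, had a mean density of 0.325 over all libraries, against 3.16 in the tested window. At 30 min its densities were 0.0464 and 0.894 in U0126 and 0.270 and 0.925 in vehicle. The unstimulated libraries of 1 h had 0.272 and 0.298 in U0126 and 0.0895 and 0.193 in vehicle. Its log2 differences at 10, 30 and 60 min were -0.07, 0.04 and 0.32 in U0126 and 0.67, 1.22 and 1.01 in vehicle (SE 0.50 each). The U0126 libraries at 30 min lay on both sides of the unstimulated ones, and both vehicle libraries lay above theirs. The second Nr4a2 window, 8965 bp upstream of the tested one, had a mean of 0.285, under the filter of 0.301, and group means of 0.137 to 0.464. At 30 min it had 0.414 and 0.135 in U0126 and 0.246 and 0.296 in vehicle, against 0.320 and 0.302 in unstimulated U0126 neurons and 0.154 and 0.318 in unstimulated vehicle neurons of 1 h. At 360 min it had 0.268 and 0.277 in U0126 and 0.479 and 0.449 in vehicle, against 0.41 and 0.16 in unstimulated U0126 neurons and 0.202 and 0.152 in unstimulated vehicle neurons of 6 h. The gain of Pol II at Nr4a2 at 30 min was therefore seen in 1 of its 2 windows.

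**Figure D3:**
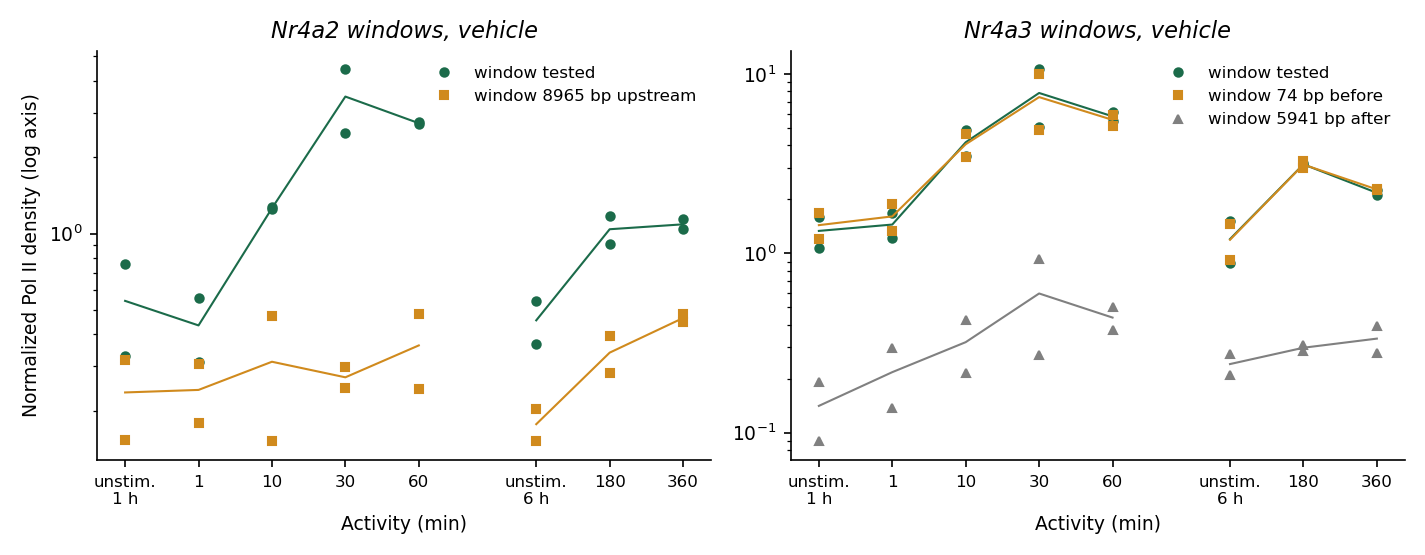
Normalized Pol II density in vehicle on a log axis, 1 point per library and lines through the group means, for the 2 windows of Nr4a2 and the 3 of Nr4a3. The tested windows and the overlapping Nr4a3 window are higher at 30 and 60 min than unstimulated, while the group means of the Nr4a2 window 8965 bp upstream stay under 0.464 up to 180 min and reach it at 360 min.

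The effect of MEK inhibition was examined as U0126 minus vehicle at each time. Per library the values stand above, and the group means at 10 min were 2.26 ± 0.654 in U0126 and 3.22 ± 0.801 in vehicle for Nr4a1 (SD, n = 2 each). For Nr4a2 they were 0.940 ± 0.390 in U0126 and 1.26 ± 0.0202 in vehicle, and for Nr4a3 3.31 ± 0.850 in U0126 and 4.16 ± 0.981 in vehicle. The 10 min libraries of the arms overlapped for Nr4a1 and Nr4a3, whereas both U0126 libraries lay below both vehicle libraries for Nr4a2. At 30 min the U0126 mean was 3.95 ± 0.406 and the vehicle mean 5.21 ± 0.441 for Nr4a1, whose libraries did not overlap. At 30 min Nr4a2 had 2.57 ± 0.645 in U0126 and 3.47 ± 1.38 in vehicle, and Nr4a3 had 6.36 ± 2.67 in U0126 and 7.84 ± 3.93 in vehicle. The arms of Nr4a2 and Nr4a3 overlapped at 30 min, and their replicates were far apart. At 60 min Nr4a1 had 4.15 ± 0.520 in U0126 and 4.49 ± 0.543 in vehicle, with overlap. Nr4a2 had 2.30 ± 0.378 in U0126 and 2.72 ± 0.0449 in vehicle, and Nr4a3 had 4.74 ± 0.211 in U0126 and 5.81 ± 0.486 in vehicle. Both U0126 libraries lay below both vehicle libraries for Nr4a2 and Nr4a3 at 60 min. The share of all genes whose arms separate in this way was not computed, so nothing is read from these separations.

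None of these differences was called. At 10 min the log2 difference U0126 minus vehicle was -0.48 for Nr4a1 (95% interval -1.08 to 0.12), -0.41 for Nr4a2 (-1.05 to 0.24) and -0.31 for Nr4a3 (-0.92 to 0.30), and 0.00827% of all genes were called. At 30 min it was -0.37 (-0.98 to 0.23), -0.36 (-1.01 to 0.28) and -0.25 (-0.86 to 0.36), with 0 genes called by limma (0%) and 259 at an unadjusted p under 0.05. At 60 min it was -0.13 (-0.74 to 0.47), -0.26 (-0.91 to 0.38) and -0.31 (-0.92 to 0.30), with 0 genes called (0%) and 302 at an unadjusted p under 0.05. Averaged over 10, 30 and 60 min it was -0.33 for Nr4a1 (-0.68 to 0.02), -0.35 for Nr4a2 (-0.72 to 0.03) and -0.29 for Nr4a3 (-0.64 to 0.06), where 0.0165% of all genes were called. The unadjusted limma p of these averages was 0.0634, 0.0682 and 0.10, and the adjusted p was 0.999 for each. All 9 single differences at 10, 30 and 60 min were below 0, and the upper bounds of all 9 intervals were above 0. The share of all genes below 0 at all of these times was not computed. The Nr4a genes were also read in the same libraries, so the 9 signs are not independent and nothing is read from their count. Leaving out replicate 1 of vehicle at 30 min turned the 30 min difference to 0.03 for Nr4a2 and 0.27 for Nr4a3, and leaving out replicate 2 of U0126 at 30 min turned it to 0.16 for Nr4a3. Leaving out replicate 2 of vehicle at 60 min turned the 60 min difference of Nr4a1 to 0.01.

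**Figure D4:**
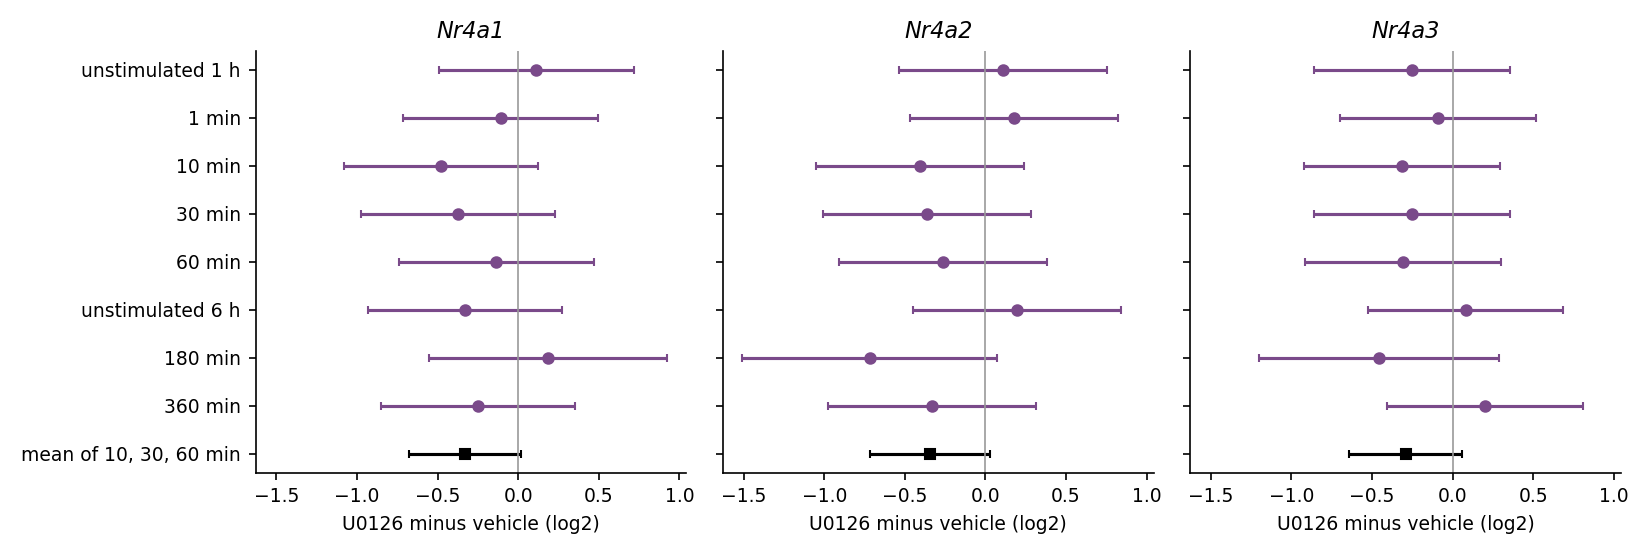
Log2 difference U0126 minus vehicle of Pol II density at each time for Nr4a1, Nr4a2 and Nr4a3, with 95% intervals, and the average of 10, 30 and 60 min as a square. At 10, 30 and 60 min all 9 estimates lie below 0 and all 9 intervals include 0. The 9 are not independent and the share over all genes was not computed, so nothing is read from their sign.

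At the other times the difference U0126 minus vehicle had no common direction. In unstimulated neurons of 1 h it was 0.11, 0.11 and -0.25 for Nr4a1, Nr4a2 and Nr4a3, and in those of 6 h it was -0.33, 0.20 and 0.08. At 1 min it was -0.11, 0.18 and -0.09, at 180 min 0.18, -0.72 and -0.45, and at 360 min -0.25, -0.33 and 0.20. At 360 min both U0126 libraries lay below both vehicle libraries for Nr4a2 and above them for Nr4a3, again without a share over all genes. At 180 min the single U0126 library was taken to vary like the libraries of other groups. At these 5 points limma called 0 genes of the table (0%), with 288, 265, 269, 304 and 114 at an unadjusted p under 0.05. The activity effects themselves were compared by an interaction, the effect in U0126 minus that in vehicle. At 10 min it was -0.59 for Nr4a1, -0.52 for Nr4a2 and -0.06 for Nr4a3, and at 30 min -0.49, -0.48 and -0.00. At 60 min it was -0.25, -0.38 and -0.06. For Nr4a3 the activity effects of the arms were thus nearly equal in size, with 95% intervals of the interaction of -0.92 to 0.80 at 10 min and -0.86 to 0.86 at 30 min. These intervals do not show that the arms act alike. No gene of the table had a called interaction at 10, 30 or 60 min (0%), with 339, 232 and 288 at an unadjusted p under 0.05.

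Nr4a1 and Nr4a3 were close to each other over the 16 group means (Pearson r 0.953 on the log2 scale), a description over groups that share the same libraries. For Nr4a1 the 5 most similar of 12096 genes were Nr4a3, Dusp1 (r 0.952), Cyr61 (0.951), Rgs2 (0.951) and Mir22hg (0.950). For Nr4a3 they were Mir22hg (0.967), Dusp1 (0.967), Cyr61 (0.965), Junb (0.959) and Nr4a1. For Nr4a2 they were Hsd17b7 (0.957), Nabp1 (0.953), Nr4a3 (0.947), Elovl5 (0.943) and 3110045C21Rik (0.942), while Nr4a1 followed in place 55 with 0.886. Dusp1 encodes a phosphatase of MAP kinases, Cyr61 a matrix protein, Rgs2 a regulator of G protein signalling and Junb a member of AP-1. Hsd17b7 encodes an enzyme of cholesterol synthesis and Elovl5 one of fatty acid elongation. At 30 min in vehicle these genes had smaller log2 differences than the Nr4a genes, 1.51 for Dusp1, 1.37 for Cyr61, 1.32 for Junb, 1.17 for Rgs2 and 1.05 for Mir22hg. Hsd17b7 had 0.97, Nabp1 1.08, Elovl5 1.05 and 3110045C21Rik 1.08. All 9 were called, and all 9 calls were lost under quantile normalization, where the 3 Nr4a genes stayed called, or without replicate 1 of the unstimulated or 30 min libraries.

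Other genes of the pathway were counted in lists. Of all genes tested, 0.182%, 1.24% and 0.157% were called higher in vehicle at 10, 30 and 60 min. Of 38 other nuclear receptors 18 were tested, and in vehicle 0, 1 and 0 were called higher at 10, 30 and 60 min and 0 lower, with medians of -0.10, -0.12 and 0.04 against 0.03, 0.02 and 0.03 over all genes. The receptor called was Rorb, a retinoid-related orphan receptor of sensory cortex (1.23 at 30 min, adjusted p 0.0454). Of 28 genes for CREB, CRTC, MEF2 and SRF and their regulators 24 were tested, and 0, 2 and 0 were called higher and 0 lower, with medians of 0.18, 0.11 and 0.25. These were Sik1, a kinase that keeps CRTC in the cytoplasm (1.49 at 30 min, adjusted p 0.0412), and Creb1, which encodes CREB (1.17, adjusted p 0.00573). The calls of Rorb, Sik1 and Creb1 were all lost under quantile normalization (1.18, 1.53 and 0.75, adjusted p 0.158, 0.120 and 0.157) and without replicate 1 of the unstimulated libraries. Of 23 other immediate-early transcription factors 21 were tested, and 6, 8 and 4 were called higher at 10, 30 and 60 min and 0 lower, with medians of 0.73, 1.07 and 0.79. At 30 min Maff had 2.11, Fos 1.99, Fosb 1.93 and Egr1 1.87, all called and all 4 below the estimates of the 3 Nr4a genes. The order was the reverse at 10 min in vehicle. There Maff had 1.62, Fos 1.68, Fosb 1.86 and Egr1 2.37, against 1.56, 1.08 and 1.53 for Nr4a1, Nr4a2 and Nr4a3. The genes were not tested against each other, and the SE at 30 min was 0.33 for Maff and 0.30 for Nr4a1. The Fosb call at 30 min was lost under quantile normalization (1.63, adjusted p 0.116) and without replicate 1 of the unstimulated (1.36) or 30 min libraries (1.66). Of 24 genes known as NR4A targets or dopaminergic markers 7 passed the filter, and 0 were called at 10, 30 or 60 min, with 0, 2 and 1 at an unadjusted p under 0.05 and medians of 0.34, 0.33 and 0.46. For U0126 minus vehicle, averaged over 10, 30 and 60 min, 1 of the 21 immediate-early factors was called lower, Egr1 (-0.80, adjusted p 0.0443). Of all genes 0.0165% were called in either direction. The list median was -0.19, against -0.01 over all genes. The call of Egr1 was lost without any 1 of 7 of the 12 libraries and under quantile normalization (-0.64, adjusted p 0.122). It was also lost with a pseudocount at percentile 10 (adjusted p 0.0536), with values as deposited (0.0625), with all windows tested (0.0563) and with no filter (0.393).

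The nearest TSSs were examined to see whether the gain extended beyond the Nr4a genes. Within 100 kb, Nr4a1 had 4 tested neighbours, Nr4a2 2 and Nr4a3 1. Of these 7, Atg101 alone was called in vehicle at 30 min, where 1.24% of all genes were called higher. Atg101, which encodes a subunit of the kinase complex that starts autophagy, has its window 17.5 kb downstream of Nr4a1. Its mean density in vehicle was 1.92 at 30 min, against 0.706 in unstimulated neurons, and it ranged from 0.626 to 1.97 over all libraries. Its log2 differences at 10, 30 and 60 min were 0.23, 0.08 and 0.51 in U0126, none called, and 1.11 (adjusted p 0.140), 1.25 (adjusted p 0.0269) and 0.86 in vehicle. The interaction was -0.88 at 10 min and -1.17 at 30 min (unadjusted limma p 0.00838, adjusted p 1.00), and no interaction was called in the table. The vehicle call of Atg101 was lost under quantile normalization (1.18, adjusted p 0.120) and without any 1 of its 4 libraries (1.21 to 1.29, adjusted p 0.0508 to 0.365). Grasp, 42.6 kb upstream and marked as dPRG by the authors, had 2.02 and 1.35 in vehicle at 30 min, against 1.20 and 1.36 in unstimulated vehicle neurons. Its log2 differences at 10, 30 and 60 min were 0.49, 0.66 and 0.83 in U0126 and 0.00, 0.31 and 0.15 in vehicle, with no call.

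H3K27ac marks active enhancers and promoters. A change in it was called in none of the 940 regions in any of the 10 comparisons reported here (0% each). By limma the regions at an unadjusted p under 0.05 numbered 21, 34 and 41 for activity at 10, 30 and 60 min in U0126 and 12, 40 and 37 in vehicle. For U0126 minus vehicle they numbered 4, 4, 8 and 4 in unstimulated neurons and at 10, 30 and 60 min. The deposited signal is normalized on a scale that is not stated, in 1 table per replicate number, and its replicates correlated less than those of Pol II (Pearson r across regions 0.302 to 0.798, against 0.750 to 0.860 across windows). Of the 20 regions, 5 were named for Nr4a1, 2 for Nr4a2, 8 for Nr4a3 and 5 for Grasp. The remaining 4 lie 3086 to 3095 kb from Nr4a1 and were named Grasp in the table of replicate 2 and AI836003 in that of replicate 1, so they were left aside. At 60 min the log2 difference to unstimulated neurons was above 0 in 13 of the 20 regions in U0126 and in 11 in vehicle. It was above 0 in both replicate tables in 10 of 20 regions in each arm. The median over the 20 was 0.24 in U0126 and 0.07 in vehicle, against 0.04 and 0.07 over all 940 regions, so in vehicle the medians were equal to 2 decimals.

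In U0126 the 4 regions of the 20 with the highest differences at 60 min lay between Grasp and Nr4a1, and in vehicle they were 4 of the 5 highest. The region on chromosome 15 at 101073710 to 101074780 (mm9), 23.0 kb upstream of the Nr4a1 window and given to Grasp as nearest, had the largest. In U0126 its signal was 0.532 and 0.581 in unstimulated neurons, 0.677 and 1.42 at 10 min, 1.61 and 2.71 at 30 min, and 1.70 and 2.72 at 60 min. In vehicle it was 0.596 and 0.936 in unstimulated neurons, 0.824 and 1.31 at 10 min, 1.53 and 3.14 at 30 min, and 3.41 and 2.20 at 60 min. At 30 and 60 min every library of this region lay above both unstimulated libraries of its arm. The share of all 940 regions that did so was not computed, so nothing is read from it. The log2 difference at 60 min was 1.25 in U0126 (SE 0.36, unadjusted p by limma 0.00499, adjusted p 0.521), rank 7 of 940, and 1.33 in vehicle (unadjusted p 0.00334, adjusted p 0.826), rank 4. Within the table of replicate 1 the difference was 1.04 in U0126 and 1.75 in vehicle, and within that of replicate 2 it was 1.45 in U0126 and 0.90 in vehicle.

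The other 3 of these regions, taken for their high differences at 60 min, were also above 0, and none was called. The region 25.6 kb upstream of Nr4a1 (101070760 to 101072540) had 0.76 at 60 min in U0126 and 0.92 in vehicle. The region 20.4 kb upstream (101076090 to 101077720) had 0.73 in U0126 and 0.90 in vehicle. The region 12.8 kb upstream (101083840 to 101085090) had the highest mean signal of the Nr4a1 regions, with 3.47 and 7.80 at 60 min and 1.75 and 2.51 unstimulated in U0126, and 5.14 and 5.92 at 60 min and 2.42 and 3.41 unstimulated in vehicle. Its log2 difference at 60 min was 1.11 in U0126 and 0.85 in vehicle. In all 4 of these regions both arms and both replicate tables gave a difference above 0. Since the 4 were picked as the highest, the choice largely fixes this sign. In each arm 10 of the 20 regions were above 0 in both tables. Another region between Grasp and Nr4a1, 30.9 kb upstream of Nr4a1, had 0.28 in U0126 and 0.15 in vehicle, and within the table of replicate 1 it had -0.36 in U0126.

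At Nr4a3, the region 6.7 kb upstream (chromosome 4 at 48050840 to 48052070, mm9) had 2.66 and 1.98 at 60 min in U0126, against 1.63 and 0.948 unstimulated, and 3.23 and 2.35 at 60 min in vehicle, against 1.41 and 1.15 unstimulated. Its 60 min libraries lay above the unstimulated ones in both arms, a separation whose share over all regions was likewise not computed. The log2 difference of this region was 0.64 in U0126 (unadjusted limma p 0.0487) and 0.87 in vehicle (unadjusted limma p 0.0114, adjusted p 0.839). The region 2.5 kb upstream (48054050 to 48057260), the strongest of the 20 by mean signal, had 0.73 in U0126 and 0.51 in vehicle. At 60 min neither of the 2 Nr4a2 regions had a positive estimate in either arm, whereas in vehicle 1 of the 2 did at 10 min and 1 at 30 min. The region 48.9 kb downstream of its TSS had -0.25 at 60 min in U0126 and -0.16 in vehicle, and the region 10.3 kb downstream had -0.13 in U0126 and -0.26 in vehicle. Their mean signals of 0.798 and 0.514 were among the lowest of the 20 regions. At 60 min the difference U0126 minus vehicle was below 0 in 18 of 20 regions in the fit. However, it was below 0 in both replicate tables in 6 and above 0 in both in 1. In unstimulated neurons it was below 0 in 16 of 20 in the fit, with a median of -0.19, against -0.09 at 60 min. The interaction at 60 min was above 0 in 10 regions and below 0 in 10. The share of all 940 regions below 0 was not computed, so nothing is read from these counts. At 60 min U0126 minus vehicle was -0.26 for the region 23.0 kb upstream of Nr4a1 (95% interval -1.05 to 0.54). It was -0.20 for that 6.7 kb upstream of Nr4a3 (-0.83 to 0.44).

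**Figure D5:**
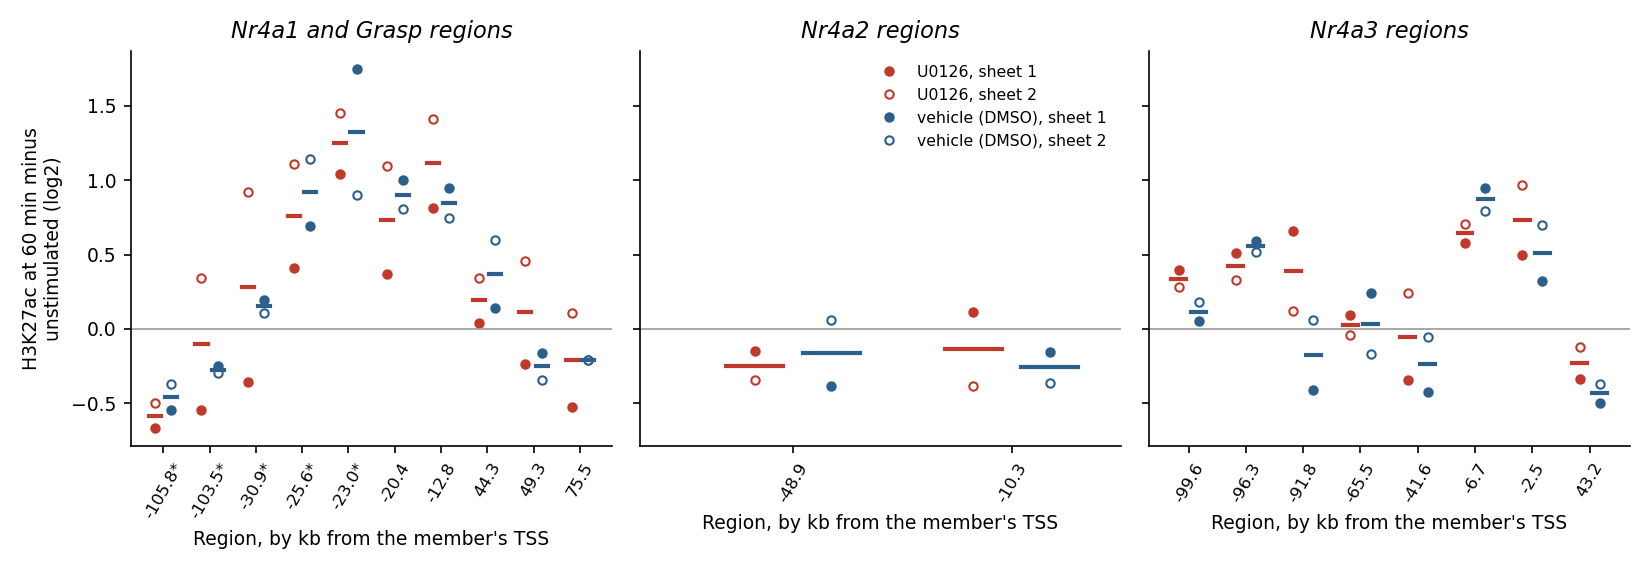
Log2 difference in H3K27ac at 60 min from unstimulated neurons for the 20 regions nearest Nr4a1, Nr4a2, Nr4a3 or Grasp (asterisk), ordered by kb from the member's TSS window in genome coordinates, for U0126 and vehicle. Points are the differences within the table (sheet) of each replicate and bars the fitted values, of which the highest in both arms, 1.25 in U0126 and 1.33 in vehicle, are at the region 23.0 kb upstream of Nr4a1, and none of the 20 was called.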

How the data were processed

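Per the submitters' processing notes, reads were handled with Bowtie2, SAMtools and bedtools on mm9; the sources used here give no versions. The deposited Pol II values are a signal, normalized Pol II density per TSS window per the file headers, which the authors scaled with control TSSs. For H3K27ac the authors deposited a normalized signal per region, in 1 table per replicate number, on a scale that is not stated. The distance columns that the authors deposited (other unit, bp) only described regions. No read counts were used, so the depth per library is unknown.

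From these values, 1 window per gene (highest mean) was kept, and genes in the upper 50 percent (mean density of 0.301 or more) were tested. The log2 of the value plus a pseudocount (percentile 25 of positive values: 0.148 in Pol II, 0.628 in H3K27ac) was centred on each library's median. Tests used limma 3.58.1 (R 4.3.3) with a variance trend, group means and no other term. The pseudocount makes fold changes of low genes smaller. The residual degrees of freedom, 15 in Pol II and 8 in H3K27ac, were raised by 18.7 and 4.17 through moderation. The fit was tested on simulated data. Promoters were searched in Python 3.11.15 with pandas 2.3.3. Alternatives were other pseudocounts, no centring, quantile normalization, no filter, all windows, a replicate block and leaving out each library.

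Named were all members and regions, the 5 genes most like each member by Pearson r over group means, all TSSs within 100 kb and up to 4 called genes per list. The members and lists were chosen with earlier results of these data known.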

Additional observations from a re-analysis of the deposited data

How the results depend on the processing

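Counts of called Nr4a genes kept within 1.5 times of those reported under all alternatives run, except those given here and the replicate block below. For activity in vehicle at 10 min (2 called), 0 were called under quantile normalization and 0 with no filter on low density, and 0 to 2 when 1 library was left out. For 10 minus 1 min in vehicle (1 called), 0 were called with a pseudocount of 1, with a pseudocount at percentile 10, under quantile normalization and with no filter, 3 with the replicate block and 0 without any 1 library. For activity in U0126 at 60 min (3 called), 1 was called with no filter and 0 to 2 without 1 library. Without 1 library, 0 to 3 were called in vehicle at 60 min, 1 to 3 in U0126 at 30 min and 0 to 1 for 30 minus 10 min in vehicle. In U0126 at 180 min the Nr4a2 estimate of 0.00 turned to -0.00950 with a pseudocount of 1, -0.0237 under quantile normalization and -0.114 with no filter, and ran from -0.136 to 0.145 without 1 library. For U0126 minus vehicle, leaving out 1 library gave -0.28 to 0.00867 for Nr4a1 at 60 min, -0.76 to 0.0304 for Nr4a2 and -0.77 to 0.27 for Nr4a3 at 30 min. The cause was not tested.

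Replicate numbers are shared by all groups, but nothing in the labels pairs the samples. Deviations from group means correlated at -0.042 to 0.503 between same-numbered Pol II samples (over 0.1 in 95 of 105 pairs) and at 0.280 to 0.887 between H3K27ac samples (28 of 28), a hint from the data that a number marks a shared deviation. The labels do not say so, and with 2 numbers per group the fit without the block was kept. With the replicate block, genes called in vehicle at 10, 30 and 60 min numbered 131, 662 and 130, against 23, 172 and 19 without it. The block gave 2 called Nr4a genes in U0126 at 10 min, 2 in vehicle at 180 min and 1 in U0126 at 180 min, where 0 were called without it; of all 12097 genes it called 25, 4 and 6 there. It also gave 1 called H3K27ac region at 60 min in each arm, the one 23.0 kb upstream of Nr4a1 (1.25 in U0126, adjusted p 0.0394, and 1.33 in vehicle, adjusted p 0.0297), where it called 12 and 7 of the 940 regions, and Nr4a2 at 10 min in vehicle (1.08, adjusted p 0.0395). For U0126 minus vehicle averaged over 10, 30 and 60 min it called none of the 3 genes (limma adjusted p 0.932 each). In deposited densities U0126 was lower in 5 of 6 same-numbered pairs for Nr4a1 and 6 of 6 for Nr4a2 and Nr4a3. The share of all genes with such counts was not computed, and pairs that share a number may deviate together, so nothing is read from them. With 2 libraries per group and no read counts, the spread between libraries sets the precision.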
